A study of Homo sapiens with 6 samples.

Results

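Transcript levels of 9 receptors of the tumour necrosis factor (TNF) receptor family and of the ligand BAFF were examined during conversion of B cells into macrophages, with and without CTCF. The 10 genes were taken by symbol from the deposited count table: *TNFRSF1A*, *TNFRSF1B*, *CD40*, *TNFRSF13B*, *TNFRSF13C*, *TNFRSF17*, *FAS*, *LTBR*, *CD27* and *TNFSF13B*, which encodes BAFF. They are 10 of the 30017 genes in the table. Of the 14758 genes with enough counts to be tested, 7 are among them, and *TNFRSF13B*, *TNFRSF17* and *CD27* are not. BLaER1-CTCF-mAID cells are a subclone of a human B cell leukemia line that carries an estradiol-inducible form of C/EBPα. Their CTCF carries a mini auxin-inducible degron (mAID), a tag that marks the protein for destruction once indole-3-acetic acid (IAA) is added. Each of 3 conditions was sequenced in 2 biological replicates, which gives 6 libraries. The 0 h cells were kept without transdifferentiation factors, the 96 h control cells received 17β-estradiol, IL-3 and CSF-1, and the 96 h CTCF-depleted cells received the same factors together with IAA from the start. The degron is present in all 3 conditions. The medium of the CTCF-depleted cells was exchanged partway for fresh medium with the factors and IAA. The methods do not state such an exchange for control cells. A line without the degron that received IAA is not part of this set. The effects of IAA itself, of any difference in medium exchange and of CTCF loss cannot be told apart. All libraries come from 1 subclone. They were made from total RNA of bulk cultures after removal of ribosomal RNA, in which fewer cells of a type and less RNA per cell cannot be told apart.

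Receptors of this family are surface proteins that bind trimeric ligands of the TNF family and pass the signal on through intracellular adaptors. *TNFRSF1A* and *FAS* encode receptors with a death domain, through which FADD and caspase-8 can be engaged. *TNFRSF1B*, *CD40*, *LTBR*, *CD27* and the BAFF receptors lack this domain and recruit TRAF proteins, which lead to NF-κB. BAFF is a survival factor for B cells, made largely by myeloid cells. It binds BAFF-R (*TNFRSF13C*), TACI (*TNFRSF13B*) and BCMA (*TNFRSF17*), and the latter pair also bind the related ligand APRIL (*TNFSF13*). Macrophages are known for responding to TNF through both of its receptors, whereas B cells receive T cell help through CD40.

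Sequences upstream of 3 of the genes that rose during conversion are shown. Upon CTCF depletion, the log2 differences of these 3 were -0.63 for *TNFRSF1B*, 0.49 for *FAS* and -0.29 for *TNFSF13B*. *TNFRSF1A* and *LTBR* also rose, and their windows are not printed. The sequences are from RefSeq on GRCh38.p14, covering 250 bases upstream of the start of the main (MANE Select) transcript, 5′ to 3′ on the strand of the gene. A window of this kind was matched for 6 of the 10 genes, *TNFRSF1A*, *TNFRSF1B*, *TNFRSF13B*, *FAS*, *LTBR* and *TNFSF13B*. Capitals mark letters that match a C/EBP motif (TTGCNNAA) or a PU.1 motif (GAGGAAG), searched on both strands together with an NF-κB motif (GGAANNTCC) and a short CTCF motif (GGNGGCAG).

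*TNFRSF1B*, chr1:12166741-12166990, plus strand: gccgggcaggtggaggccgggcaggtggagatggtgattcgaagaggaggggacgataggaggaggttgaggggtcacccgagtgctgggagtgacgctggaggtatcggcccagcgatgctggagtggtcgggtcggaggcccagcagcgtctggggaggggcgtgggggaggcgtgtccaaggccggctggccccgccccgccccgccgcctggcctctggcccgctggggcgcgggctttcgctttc

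*FAS*, chr10:88990548-88990797, plus strand: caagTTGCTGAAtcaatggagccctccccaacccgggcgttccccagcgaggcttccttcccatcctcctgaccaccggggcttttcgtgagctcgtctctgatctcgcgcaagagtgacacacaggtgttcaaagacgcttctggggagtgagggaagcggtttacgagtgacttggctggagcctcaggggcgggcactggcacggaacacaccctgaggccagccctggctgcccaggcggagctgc

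*TNFSF13B*, chr13:108269468-108269717, plus strand: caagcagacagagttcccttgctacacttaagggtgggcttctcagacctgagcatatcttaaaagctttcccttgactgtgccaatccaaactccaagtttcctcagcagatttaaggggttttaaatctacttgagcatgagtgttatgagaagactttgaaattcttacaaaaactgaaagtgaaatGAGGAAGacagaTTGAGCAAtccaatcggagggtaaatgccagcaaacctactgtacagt

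The *TNFSF13B* window held 1 PU.1 match beginning 60 bases upstream of the start and 1 C/EBP match beginning 48 bases upstream, and these did not overlap. The *FAS* window held 1 C/EBP match beginning 246 bases upstream. None of the 4 motifs matched in the *TNFRSF1A*, *TNFRSF1B*, *TNFRSF13B* and *LTBR* windows. Over 35097 promoters of the same length, the C/EBP letters occurred in 9.05%, the PU.1 letters in 11.2%, the NF-κB letters in 3.85% and the CTCF letters in 13.4%. GC content was 41.6% in the *TNFSF13B* window, 62.8% in the *FAS* window and 72.4% in the *TNFRSF1B* window, against a median of 58.0% over all promoters. A match describes the letters only.

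The raw counts summed to between 9273470 and 12718780 per library. Levels are given as CPM, which are counts divided by the library total after TMM scaling, and differences were tested with edgeR's quasi-likelihood test with Benjamini–Hochberg adjustment over all 14758 genes. A gene was called when its adjusted p was below 0.01 and its log2 fold change was beyond 0.6 in either direction, the thresholds of the study. The labels were checked with marker lists. The 12 B cell markers summed to between 3728 and 3737 CPM at 0 h and to between 452.5 and 465.0 CPM in 96 h control cells, and 12 of 12 fell. The 11 macrophage markers summed to between 52.6 and 58.4 CPM at 0 h and to between 6329 and 6559 CPM in 96 h control cells, and 11 of 11 rose. Upon CTCF depletion, the B cell marker sum was between 461.9 and 472.8 CPM and the macrophage marker sum between 5612 and 5703 CPM, but members of both lists moved within these sums. Of the 12 B cell markers, 11 had negative log2 differences, with *RAG1* (-1.94) and *VPREB1* (-0.89) called lower, and *CD22* was called higher (1.47, from 34.8 to 96.6 CPM). Of the 11 macrophage markers, 7 had positive values, with a median of 0.28, 1 called higher (*ITGAM*, 1.15) and 2 called lower. The 2 with the largest falls in CPM were *LYZ*, from 4527 to 4158 (not called), and *CYBB*, from 1187 to 624 (called lower). Of 6 plasma cell markers, which include *TNFRSF17*, 2 rose during conversion, among them *PRDM1*, and 3 fell, among them *IRF4*. The list of T and NK cell markers summed to between 2.99 and 3.08 CPM at 0 h and to between 40.3 and 41.8 CPM in control cells, of which *NKG7* took 34.7 CPM, with *CD3D* and *CD3G* at 0 counts in every library. All 3 tested genes of this list, *NKG7*, *CD2* and *CD4*, were called higher during conversion. *CD2* and *CD4* had 0 counts at 0 h, and in control cells 40 and 38 and 25 and 19, respectively. The 6 erythroid markers had 0 counts in every library. *CTCF* transcripts, which the degron does not target, averaged 177 ± 5.03 CPM in control cells, against 190 ± 1.41 CPM after CTCF depletion (SD, n = 2), a log2 difference of 0.10 (SE 0.05, adjusted p = 0.119).

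Conversion with CTCF raised 6 of the 7 tested genes and lowered 1. The ligand BAFF had the largest log2 change among them, followed by *LTBR*, *FAS*, *TNFRSF1B*, *TNFRSF1A* and *CD40*, and the BAFF receptor *TNFRSF13C* moved the other way. Over all genes tested, 25.4% were called higher and 22.9% lower in this comparison. The filter keeps genes that are well counted in a single condition, so that the 7 do not stand for the 10, and their number is given as a description. In 7 of 7, the control libraries and the 0 h libraries did not overlap, as was the case for 86.7% of all genes tested.

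The TNF receptors TNFR1 and TNFR2 both rose. *TNFRSF1A* (chr12:6328757-6342114, minus strand, hg38) had 243 and 304 counts at 0 h, 1948 and 1822 in control cells and 1975 and 1906 in CTCF-depleted cells. Scaled to depth, these were 25.1 and 22.8 CPM at 0 h, 172 and 169 in control cells and 183 and 176 in CTCF-depleted cells. All 96 h libraries lay well above both 0 h libraries. The log2 fold change from 0 h to control was 2.84 ± 0.07 (SE), which is 7.15-fold (adjusted p = 2.17e-40). *TNFRSF1B* (chr1:12166991-12209228, plus strand) encodes TNFR2, which is activated chiefly by membrane-bound TNF. It had 68 and 98 counts at 0 h, 1899 and 1795 in control cells and 1196 and 1142 in CTCF-depleted cells. In CPM, the 0 h libraries were at 7.01 and 7.35, the control libraries at 168 and 166 and the CTCF-depleted libraries at 111 and 105. The conditions formed 3 separate steps, with control cells on top. Conversion raised it by 4.53 ± 0.09 on the log2 scale, or 23.1-fold (adjusted p = 3.08e-45).

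*FAS* encodes the receptor through which Fas ligand induces cell death. This gene (chr10:88953813-89029605, plus strand) had 22 and 32 counts at 0 h, 734 and 659 in control cells and 944 and 965 in CTCF-depleted cells. Its CPM values were 2.27 and 2.40 at 0 h, 64.8 and 61.0 in control cells and 87.4 and 88.9 in CTCF-depleted cells. Here the CTCF-depleted libraries were on top. From 0 h to control the log2 fold change was 4.74 ± 0.13, or 26.7-fold (adjusted p = 2.60e-38). The annotated span of *FAS* is overlapped by *STAMBPL1* on the same strand and by *ACTA2* on the opposite strand, and the strand setting of the counting is not given in the sources used here. *ACTA2* had 17 and 20 counts at 0 h, 293 and 267 in control cells and 302 and 325 in CTCF-depleted cells, and *STAMBPL1* had 56 and 71, then 55 and 36, then 86 and 103. Both were counted less often than *FAS* in every 96 h library, whereas *STAMBPL1* was counted more often than *FAS* in both 0 h libraries. The part of shared reads was not tested.

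*LTBR* encodes the lymphotoxin β receptor, which acts in the formation of lymphoid organs. It lies at chr12:6375045-6391571 on the plus strand, 32931 bases from *TNFRSF1A*. It had 17 and 19 counts at 0 h, 776 and 737 in control cells and 799 and 849 in CTCF-depleted cells, equal to 1.75 and 1.43 CPM, 68.5 and 68.3 CPM and 74.0 and 78.2 CPM. The 0 h libraries were low and all 96 h libraries were high. Conversion raised *LTBR* by 5.44 ± 0.14 on the log2 scale, or 43.4-fold (adjusted p = 7.14e-40).

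*CD40* (chr20:46118271-46129863, plus strand) encodes the receptor for CD40 ligand on B cells and macrophages. It changed least among the genes called. Its counts were 71 and 107 at 0 h, 180 and 150 in control cells and 293 and 266 in CTCF-depleted cells. The matching CPM values were 7.32 and 8.03, 15.9 and 13.9, and 27.1 and 24.5, so that the conditions formed rising steps without overlap. From 0 h to control the log2 fold change was 0.95 ± 0.15, or 1.93-fold (adjusted p = 1.26e-07).

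The BAFF system split between the ligand and its receptor. *TNFSF13B* (chr13:108251240-108308484, plus strand) had 7 and 18 counts at 0 h, 917 and 869 in control cells and 721 and 705 in CTCF-depleted cells. In CPM these were 0.722 and 1.35 at 0 h, 80.9 and 80.5 in control cells and 66.8 and 64.9 in CTCF-depleted cells. The ligand was near the limit of detection at 0 h and abundant in all 96 h libraries. Conversion raised it by 6.20 ± 0.15 on the log2 scale, or 73.7-fold (adjusted p = 1.85e-41). This value was 5.88 without 0 h replicate 1 and 6.74 without 0 h replicate 2, so that its size is less exact than the SE. *TNFRSF13C* encodes BAFF-R, which carries the BAFF survival signal in B cells, and lies at chr22:41922032-41926806 on the minus strand. It had 311 and 410 counts at 0 h, 34 and 22 in control cells and 9 and 12 in CTCF-depleted cells. Its CPM values were 32.1 and 30.7 at 0 h, 3.001 and 2.04 in control cells and 0.833 and 1.10 in CTCF-depleted cells, which makes 3 falling steps. From 0 h to control it fell by 3.63 on the log2 scale (SE 0.18, adjusted p = 3.30e-26). *MIR378I*, annotated within the span of *TNFRSF13C* on the same strand, had 48 and 52 counts at 0 h, 4 and 4 in control cells and 3 and 2 in CTCF-depleted cells, and reads of the 2 genes may be shared.

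The other BAFF and APRIL receptors and *CD27* were hardly counted in any library. *TNFRSF13B* (TACI, chr17:16929816-16972118, minus strand) had 1 count in each 0 h library and 0 in all 96 h libraries. *TNFRSF17* (BCMA, chr16:11965210-11968068, plus strand), a receptor of plasma cells, had 1 and 2 counts at 0 h, 1 and 0 in control cells and 0 in both CTCF-depleted libraries. *CD27* (chr12:6444955-6451718, plus strand), the receptor for CD70 on memory B cells and T cells, had 6 and 1 counts at 0 h, 0 in both control libraries and 0 and 1 upon CTCF depletion. A count of 0 allows up to 3 counts, which corresponds to between 0.225 and 0.309 CPM depending on the library, for counting error only. Differences between conditions were not detectable for these 3 genes at this depth. The span of *CD27* is overlapped by *CD27-AS1* on the opposite strand and by *TAPBPL* on the same strand, and these had between 64 and 118 and between 87 and 142 counts per library.

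**Figure D1:**
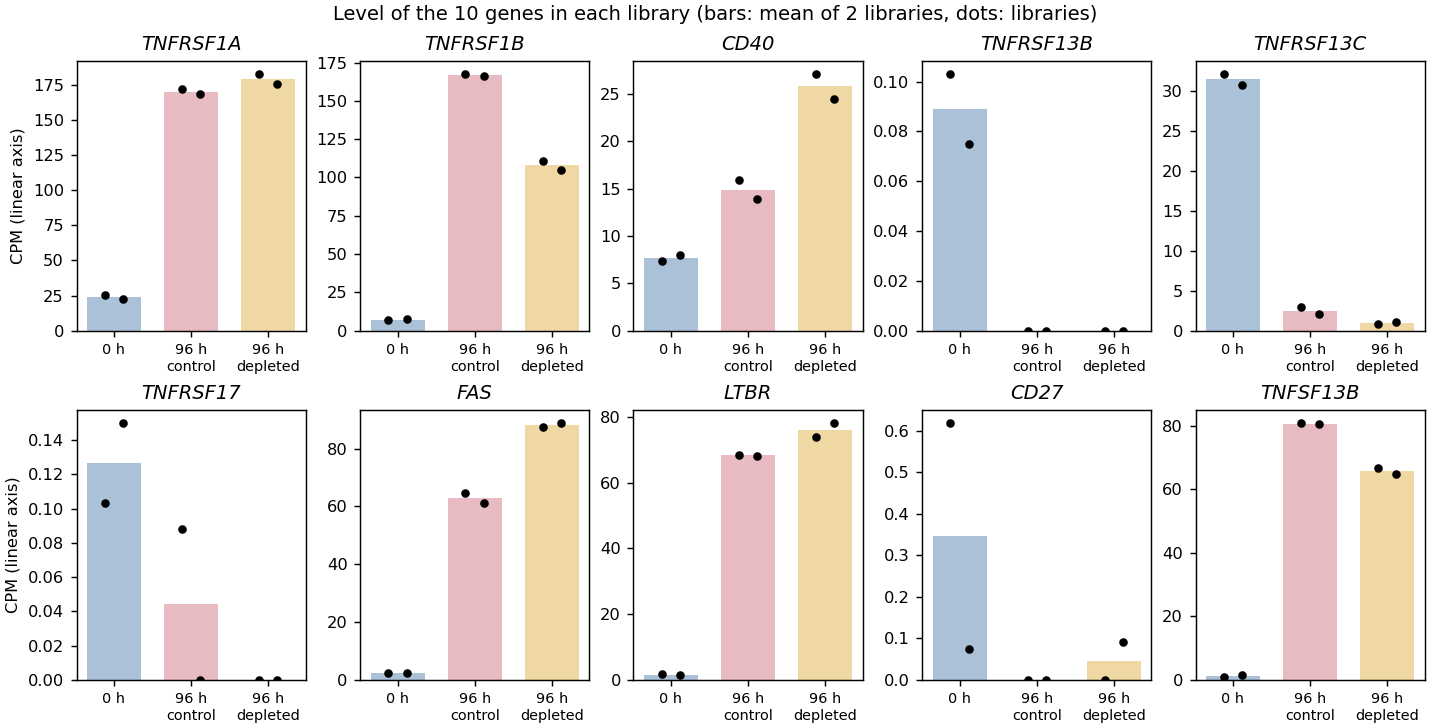
Transcript level of each of the 10 genes in CPM, on a linear axis from 0 with its own scale for each gene. Bars are means of the 2 libraries of a condition and points are the libraries. *TNFSF13B*, *LTBR*, *FAS*, *TNFRSF1B*, *TNFRSF1A* and *CD40* are higher in all 96 h libraries than at 0 h, *TNFRSF13C* is lower, and *TNFRSF13B*, *TNFRSF17* and *CD27* stay at between 0 and 6 counts.

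To compare levels between genes, CPM were divided by the length of the MANE Select transcript in kb. At 0 h, *TNFRSF1A* had the highest level of the 10 genes at 11.02 CPM per kb, followed by *TNFRSF13C* at 8.01 and *CD40* at 4.56. Next came *TNFRSF1B* at 1.95, *LTBR* at 0.745, *FAS* at 0.632 and *TNFSF13B* at 0.402 CPM per kb. The libraries of *TNFSF13B* and *CD27*, and those of *CD27* and *TNFRSF17*, overlapped, so that their order at 0 h was not resolved. In control cells the order was *TNFRSF1A* at 78.5 CPM per kb, *TNFRSF1B* at 45.3, *LTBR* at 32.0, *TNFSF13B* at 31.3, *FAS* at 17.0, *CD40* at 8.85 and *TNFRSF13C* at 0.642. In CTCF-depleted cells *TNFRSF1A* was again first at 82.5 CPM per kb, and *LTBR* at 35.7 was above *TNFRSF1B* at 29.3. *TNFSF13B* at 25.6, *FAS* at 23.9, *CD40* at 15.4 and *TNFRSF13C* at 0.247 CPM per kb followed. Neighbours in the order of these 7 genes did not overlap in their libraries within any condition. The order assumes the MANE Select length for each gene, and other transcripts were not tested. This matters most for close values, such as those of *LTBR* and *TNFSF13B* in control cells.

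The make-up of the 9 receptors, as the share of each in their summed level per kb, changed accordingly. *TNFRSF1A* held the largest share in every library, with 41.1% and 39.3% at 0 h, 42.9% and 43.2% in control cells and 44.6% and 43.7% in CTCF-depleted cells. *TNFRSF13C* took 29.1% and 29.4% at 0 h, but 0.414% and 0.288% in control cells and 0.112% and 0.152% in CTCF-depleted cells. The 3 largest shares were those of TNFR1, BAFF-R and CD40 at 0 h and those of TNFR1, TNFR2 and LTBR in control cells. *TNFRSF1B* rose from 6.77% and 7.46% at 0 h to 24.6% and 25.0% in control cells and held 15.9% and 15.4% in CTCF-depleted cells. *LTBR* had 2.92% and 2.50% at 0 h, 17.4% and 17.8% in control cells and 18.4% and 19.8% in CTCF-depleted cells. *CD40* had 15.5% and 17.9% at 0 h, 5.12% and 4.59% in control cells and 8.54% and 7.87% in CTCF-depleted cells, so that its share was lower after conversion although its CPM was higher.

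Upon CTCF depletion, 1 of the 7 tested genes was higher than in control cells at 96 h, 2 were lower and 4 were not called. *CD40* was the gene called higher, and *TNFRSF1B* and *TNFRSF13C* were called lower. Over all genes tested, 5.41% were called higher and 7.03% lower. In 7 of 7, the libraries of the 2 conditions did not overlap, which held for 67.9% of all genes tested.

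The level of *TNFRSF1B* was 167 ± 0.968 CPM in control cells, against 108 ± 3.92 CPM after CTCF depletion (SD, n = 2). It fell by 0.63 on the log2 scale (SE 0.06, 95% interval -0.75 to -0.50, adjusted p = 1.18e-12), or 1.55-fold. This value lies close to the fold change threshold of 0.6. It was -0.597 when genes with low counts were kept, -0.596 in a fit of only the 4 libraries compared, -0.59 without 96 h control replicate 1 and -0.56 without CTCF-depleted replicate 2, so that the call was lost in these 4 of 10 alternatives, with adjusted p of at most 4.52e-06 over all 10. The ratio of *TNFRSF1B* to *TNFRSF1A* counts within a library does not depend on scaling. It was 0.281 and 0.324 at 0 h, 0.9749 and 0.985 in control cells and 0.606 and 0.599 in CTCF-depleted cells. The TNF receptors were thus counted about equally in control cells, and TNFR2 less than TNFR1 in the others. These counts are not corrected for transcript length. Per kb, *TNFRSF1B* was below *TNFRSF1A* in control cells too, at 45.3 against 78.5 CPM per kb. The log2 value of the count ratio rose by 1.70 from 0 h to control and fell by 0.70 from control to CTCF-depleted cells. An exact two-sided permutation test gave p = 0.33 for each, the smallest value that 2 against 2 libraries can give.

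That of *TNFRSF13C* was 2.52 ± 0.681 CPM in control cells, against 0.969 ± 0.192 CPM after CTCF depletion. It fell by 1.37 on the log2 scale (SE 0.35, 95% interval -2.08 to -0.66, adjusted p = 0.00134). These values rest on between 9 and 34 counts per library. The log2 difference was -1.03 without 96 h control replicate 1 (adjusted p = 0.0741) and -1.15 without CTCF-depleted replicate 1 (adjusted p = 0.0296), where the call was lost.

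*CD40* rose from 14.9 ± 1.41 CPM to 25.8 ± 1.86 CPM upon CTCF depletion. The log2 difference was 0.79 (SE 0.12, 95% interval 0.54 to 1.04, adjusted p = 4.63e-07), or 1.73-fold, and *CD40* was called in all 10 alternatives, with values between 0.73 and 0.93. *FAS* had 62.9 ± 2.65 CPM in control cells, against 88.2 ± 1.05 CPM after depletion, a log2 difference of 0.49 (SE 0.07, 95% interval 0.34 to 0.63, adjusted p = 1.67e-07), which passed the p threshold but not that on the fold change. *STAMBPL1*, which overlaps it on the same strand, rose by 1.08 on the log2 scale (adjusted p = 3.51e-05). Likewise below the fold change threshold, BAFF had 80.7 ± 0.322 CPM in control cells, against 65.9 ± 1.28 CPM after depletion, a log2 difference of -0.29 (SE 0.07, 95% interval -0.44 to -0.14, adjusted p = 0.00108). *LTBR* differed by 0.15 on the log2 scale (SE 0.07, 95% interval 0.01 to 0.30, adjusted p = 0.0904) and *TNFRSF1A* by 0.07 (SE 0.06, 95% interval -0.04 to 0.19, adjusted p = 0.322). For these 2 receptors the upper end of the interval lies below the fold change threshold. Markers of B cells and macrophages also differed in both directions upon CTCF depletion, as given above, and their part in the differences of the receptors, that of *TNFRSF13C* included, was not tested.

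**Figure D2:**
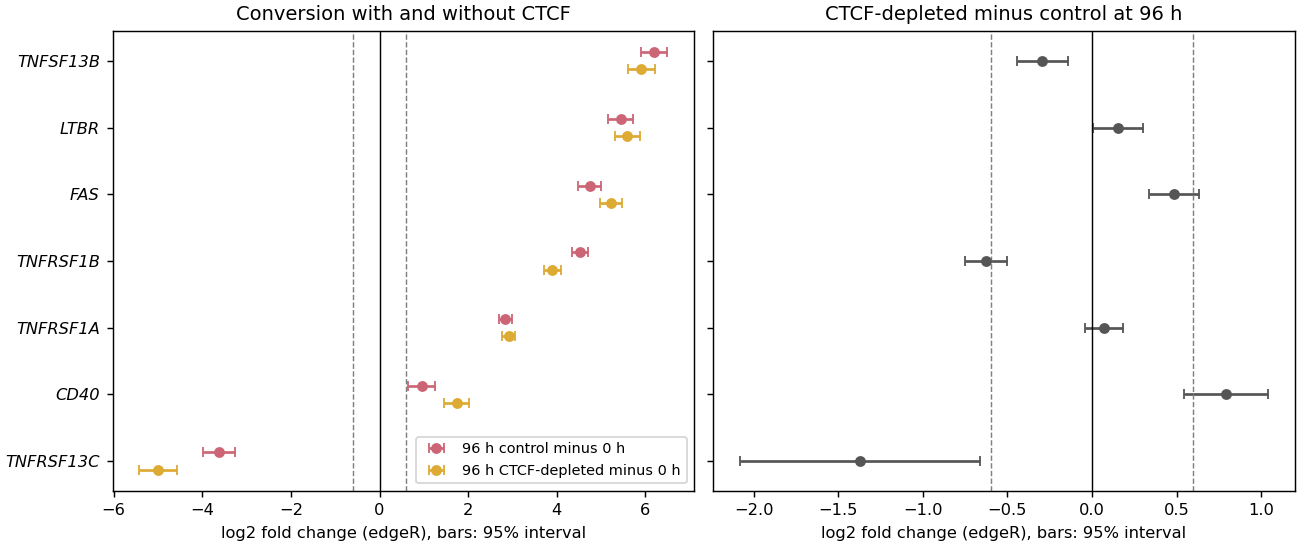
Log2 fold changes of the 7 tested genes from edgeR, with 95% intervals, for conversion with CTCF, CTCF depletion at 96 h and conversion without CTCF, and with dashed lines marking the fold change threshold of 0.6. Conversion values run from -3.63 for *TNFRSF13C* to 6.20 for *TNFSF13B*, whereas depletion values run from -1.37 for *TNFRSF13C* to 0.79 for *CD40*.

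Compared with 0 h, CTCF-depleted cells had the same 6 genes called higher and the same 1 called lower as control cells, against 27.2% and 25.2% of all genes tested. The 3 comparisons share libraries, so that their values are given side by side and are not separate evidence. *TNFRSF1A* had a log2 fold change of 2.91 without CTCF and 2.84 with it, *LTBR* 5.59 and 5.44, and *FAS* 5.23 and 4.74. For *TNFRSF1B* the values were 3.90 and 4.53, for *TNFSF13B* 5.91 and 6.20, for *CD40* 1.74 and 0.95 and for *TNFRSF13C* -5.00 and -3.63. Thus *TNFRSF1B* rose 15.0-fold without CTCF and 23.1-fold with it.

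Ligands of these receptors were measured in the same libraries. Of 17 other TNF family ligands, 10 were tested, and 7 rose and 2 fell during conversion, against 25.4% and 22.9% of all genes, with a median log2 fold change of 1.62 against 0.02 over all genes. The filter keeps genes that are well counted in a single condition, so that the 10 do not stand for the 17. Of the 10, 2 had at most 3 counts in each 0 h library. These numbers are given as a description. Upon CTCF depletion 2 of the 10 rose and 0 fell, against 5.41% and 7.03% of all genes, with a median of 0.30 against -0.03 over all genes. *TNF*, the ligand of both TNF receptors, had 29 and 51 counts at 0 h, 80 and 95 in control cells and 175 and 187 in CTCF-depleted cells. The CTCF-depleted libraries were clearly on top. *TNF* rose by 1.19 ± 0.21 on the log2 scale during conversion (adjusted p = 1.57e-06) and by 1.08 ± 0.16 upon CTCF depletion (adjusted p = 1.62e-07), while *TNFRSF1B* fell in the latter comparison.

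The lymphotoxins, which bind LTBR and the TNF receptors, were scarce. *LTA* had 47 and 42 counts at 0 h, 3 and 10 in control cells and 9 in each CTCF-depleted library, and fell by 2.71 on the log2 scale during conversion (adjusted p = 1.46e-07). This value was -2.10 without 96 h control replicate 1 and -3.82 without 96 h control replicate 2. *LTB* had 0 counts at 0 h, 0 and 1 in control cells and 5 in each CTCF-depleted library. The LTBR ligand *TNFSF14* (LIGHT) had 0 counts at 0 h, 8 and 6 in control cells and 3 and 9 in CTCF-depleted cells. *CD40LG*, a T cell ligand, and *FASLG* each had at most 1 count in any library. *CD70*, the ligand of CD27, had 15 and 30 counts at 0 h, 48 and 39 in control cells and 31 and 41 in CTCF-depleted cells, with a log2 fold change during conversion of 1.01 (adjusted p = 0.00272) that DESeq2 did not call (adjusted p = 0.0515). The *CD70* call was also lost without 0 h replicate 1 and without 96 h control replicate 1, with values between 0.79 and 1.30 over its alternatives. APRIL (*TNFSF13*) rose as well, from 37 and 63 counts to 206 and 191, by 2.05 on the log2 scale (adjusted p = 1.11e-16). It had 213 and 204 counts upon CTCF depletion, a log2 difference of 0.10 (adjusted p = 0.575). *TNFRSF6B*, a soluble decoy for Fas ligand and LIGHT, had at most 5 counts in any library.

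Other ligands of the family were also called. *TNFSF10* (TRAIL), which induces death through its own receptors, had 7 and 3 counts at 0 h and 437 and 398 in control cells, a log2 fold change of 6.40 ± 0.21 (adjusted p = 2.59e-34), which was 7.31 without 0 h replicate 1 and 5.64 without 0 h replicate 2. *TNFSF9*, the ligand of 4-1BB, rose by 2.57 ± 0.14 (adjusted p = 2.18e-23). *TNFSF15* (TL1A) had 2 and 0 counts at 0 h, 200 and 216 in control cells and 400 and 344 in CTCF-depleted cells, a log2 difference upon CTCF depletion of 0.87 ± 0.12 (adjusted p = 1.71e-08). *TNFSF4* (OX40L) had a log2 fold change of -0.64 during conversion (adjusted p = 0.00431), which was lost with DESeq2 (adjusted p = 0.0598) and when any 1 of the 4 libraries compared was left out.

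Among 20 other receptors of the family, 13 were tested. During conversion 9 rose and 2 fell, against 25.4% and 22.9% of all genes, with a median log2 fold change of 2.07 against 0.02. Of the 13, 2 had at most 3 counts in each 0 h library. As with the ligands, the tested genes do not stand for the whole list, and their number is given as a description. The TRAIL receptor gene *TNFRSF10B* rose by 2.14 ± 0.05 (adjusted p = 4.87e-40), from 75.7 to 332 CPM. *TNFRSF10D*, a decoy receptor for TRAIL, rose by 2.07 (adjusted p = 1.44e-30), *EDA2R* by 2.03 (adjusted p = 9.80e-26) and *TNFRSF14*, the HVEM receptor for LIGHT, by 2.84 (adjusted p = 1.47e-22). *TNFRSF21* (DR6) fell by 3.06 (adjusted p = 5.23e-31) and *TNFRSF8* (CD30) by 2.59 (adjusted p = 1.27e-22). *TNFRSF8* lies 22784 bases from *TNFRSF1B* on the same strand, and the neighbours differed in direction. It had 309 and 404 counts at 0 h, 53 and 61 in control cells and 22 and 18 in CTCF-depleted cells.

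Upon CTCF depletion 2 of the 13 receptors were called higher and 1 lower, against 5.41% and 7.03% of all genes, with a median log2 difference of -0.13 against -0.03 over all genes. *TNFRSF8* fell by 1.47 (SE 0.26, adjusted p = 4.06e-06). Its neighbour *TNFRSF1B* fell by 0.63, a call that did not hold under every alternative. *VPS13D*, on the other side of *TNFRSF1B*, had a log2 difference of 0.35, which was not called. The calls for *TNFRSF10C*, a second TRAIL decoy with 32 and 31 counts in control and 59 and 57 in CTCF-depleted cells, and for *NGFR*, with 6 and 5 against 20 and 21 counts, were lost with DESeq2 and when any 1 of the 4 libraries was left out. Their log2 differences were 0.91 (adjusted p = 0.00586) and 1.91 (adjusted p = 0.00241). The TRAIL receptors are close paralogs, and reads may be shared between them.

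All 29 genes of a list of adaptors and receptor-proximal signalling proteins were tested. Of these, 14 rose and 3 fell during conversion, against 25.4% and 22.9% of all genes, with a median log2 fold change of 0.60 against 0.02 over all genes. The calls of *MAP3K14* and *TAB1*, 2 of the 14, were lost without 0 h replicate 1 and without 0 h replicate 2, respectively. *TANK*, a TRAF-binding adaptor, rose by 2.71 (adjusted p = 1.02e-36) and *CYLD*, a deubiquitinase that restrains NF-κB, by 2.34 (adjusted p = 5.48e-31). *CFLAR*, which encodes the caspase-8 inhibitor FLIP, rose by 1.40 (adjusted p = 8.72e-27). *TAB2*, which couples TRAF6 to the kinase TAK1, rose by 1.12 (adjusted p = 1.17e-26). *TRAF5* fell by 1.39 (adjusted p = 5.78e-12) and *TRAF4* by 0.68 (adjusted p = 6.31e-11).

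Of the 29 adaptor genes, 2 were called higher upon CTCF depletion and 0 lower, against 5.41% and 7.03% of all genes, with a median log2 difference of 0.08 against -0.03 over all genes. The share called higher was near that of all genes. *TNFAIP3* encodes A20, an inhibitor of NF-κB signalling downstream of TNFR1 and CD40. It had 359 and 475 counts at 0 h, 106 and 116 in control cells and 328 and 249 in CTCF-depleted cells. The control libraries were thus the low ones. The log2 difference was -1.85 ± 0.12 from 0 h to control (adjusted p = 2.06e-20) and 1.41 ± 0.13 from control to CTCF-depleted cells (adjusted p = 8.41e-14), and -0.44 from 0 h to CTCF-depleted cells, which was not called. *BIRC2*, which encodes the TRAF-bound ubiquitin ligase cIAP1, rose by 0.64 ± 0.08 upon CTCF depletion, from 45.8 to 71.5 CPM (adjusted p = 7.98e-10).

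**Figure D3:**
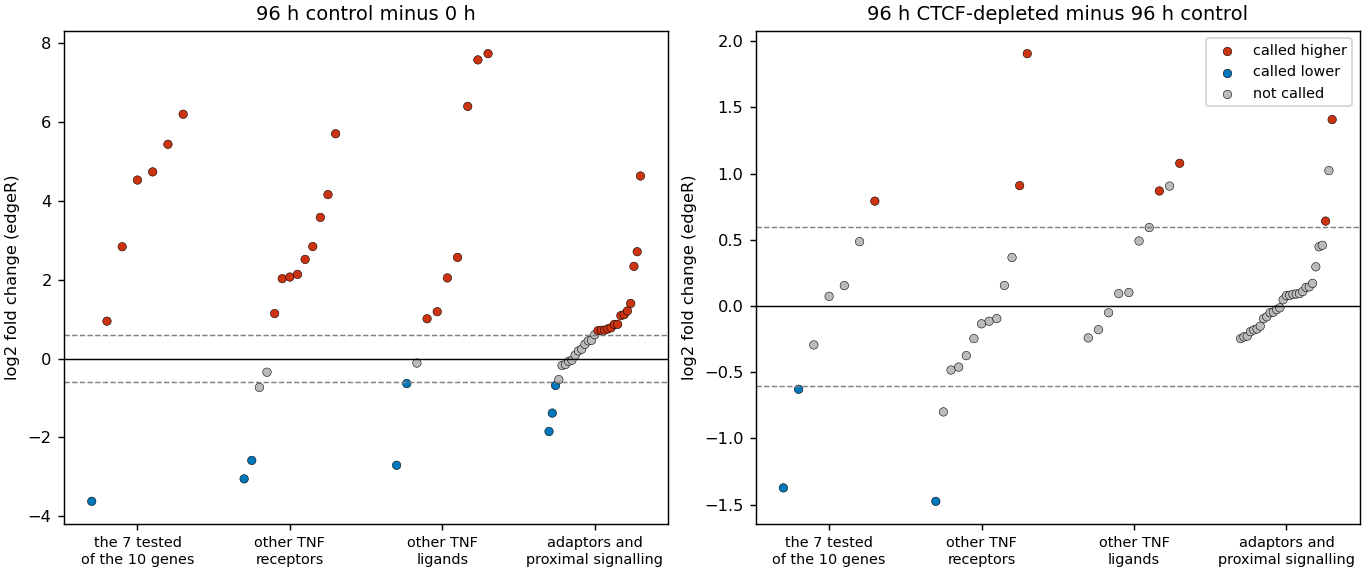
Log2 fold changes of the tested genes of 3 lists (other TNF receptors, other TNF ligands, receptor adaptors) and of the 7 tested genes of the set, for conversion and for CTCF depletion at 96 h, with 1 point per gene and lines at the fold change threshold of 0.6. Colours mark called genes, and fitted conversion values of genes with at most 3 counts per library at 0 h, such as *TNFSF15*, are not exact sizes. For CTCF depletion most points are grey and lie between the threshold lines, with *NGFR* at 1.91, *TNFAIP3* at 1.41 and *TNF* at 1.08 among those above them. *TNFRSF8* at -1.47 and *TNFRSF13C* at -1.37 are among those below. The call of *NGFR*, which had between 5 and 21 counts in these libraries, was lost with DESeq2 and when any library compared was left out.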

How the data were processed

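RNA-seq was measured in BLaER1-CTCF-mAID cells at 0 h and 96 h, with 2 biological replicates per condition. The authors deposited raw counts per gene symbol, which were not normalized. Per the methods, reads were processed with nf-core/rnaseq, aligned to hg38 and counted over exons of protein-coding genes. The deposited counts are not limited to such genes, as *MIR378I* (a microRNA) and *CD27-AS1* (a long noncoding RNA) are among them. The submitters' processing notes list STAR 2.6.1d and featureCounts 2.0.6. The annotation release and the strand setting are not given in the sources used here. Alignment and counting were not repeated, so that reads of overlapping genes could not be reassigned.

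The edgeR package (4.0.16, R 4.3.3) was used to filter genes (filterByExpr), scale libraries (TMM) and fit 1 quasi-likelihood model to all 6 libraries, with condition and no other term. The Benjamini–Hochberg adjustment covered 14758 genes. F statistics gave the standard errors. The fit moderates the spread of each gene by that of all genes tested, with 51.7 prior degrees of freedom. Standard errors, intervals and p-values of a gene therefore do not rest on its own libraries alone. The ratio of *TNFRSF1B* to *TNFRSF1A* used counts with 0.5 added. The fit was tested on simulated data. Summaries and plots used Python 3.11.15, pandas 2.3.3, numpy 2.4.6, scipy 1.17.1 and matplotlib 3.10.9. Positions and transcript lengths come from GENCODE 44, in which 23448 symbols (78.1%) were found, and promoter sequences from RefSeq.

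The 10 genes, the gene lists and the tests were chosen with earlier results of these data known. The lists were other TNF receptors, other TNF ligands, receptor adaptors, and markers of B cells, macrophages, T and NK cells, plasma cells and erythroid cells. Apart from the 10 genes, the text names *CTCF*, known ligands and decoys of the receptors, neighbouring and overlapping genes, and up to 4 called genes per list and direction with the smallest adjusted p. Markers are given by count, with examples from the lists, some of which were picked by their values. *MAP3K14* and *TAB1* fall outside these rules and were chosen after their values were seen. Replicates differed by more than sampling noise in each condition, by a chi-square statistic of between 1.73 and 2.76 per degree of freedom. Alternatives were DESeq2 1.42.0, RLE scaling, other filters, a fit of the 4 libraries compared, a replicate block, an adjusted p under 0.05 with no limit on the fold change, and leaving out each library. Intervals cover the spread between these libraries only.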

Additional observations from a re-analysis of the deposited data

How the results depend on the processing

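The directions of the 7 tested genes held under every alternative run in each of the 3 comparisons. Of 204 recomputed values of single genes, 198 kept direction and call, 6 lost the call and 0 reversed. The losses concern CTCF depletion only, *TNFRSF1B* in 4 alternatives and *TNFRSF13C* in 2, as given above. Of the 10 genes, 2 were called lower upon CTCF depletion in the fit reported, against 1 without a filter on low counts, 1 in a fit of only the 4 libraries compared and between 0 and 2 when each library was left out in turn (0 without 96 h control replicate 1). With at least 10 counts in every library, *TNFRSF13C* and *TNFSF13B* were not tested. This left 1 called lower upon CTCF depletion, and 5 called higher in place of 6 and 0 called lower in place of 1 during conversion, with or without CTCF. With an adjusted p under 0.05 and no limit on the fold change, the genes called higher upon CTCF depletion were 2, *CD40* and *FAS*, and those called lower were 3, with *TNFSF13B* added. Over all genes, that setting called 5612 in place of 3748 higher and 5500 in place of 3376 lower during conversion, 2375 in place of 798 higher and 3330 in place of 1038 lower upon CTCF depletion, and 5784 in place of 4016 higher and 5658 in place of 3726 lower during conversion without CTCF.

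Same-numbered replicates did not deviate together (correlations of -0.0194, 0.0109 and -0.0294 between conditions), so the numbers were not treated as pairs. With the replicate block, 6 of the 10 genes were called higher and 1 lower during conversion and 1 higher and 2 lower upon CTCF depletion, and the counts over all genes were 3730 and 3360, and 785 and 1033. The block changed no call of the 10 genes. Groups of 2 libraries allow no test of outlying samples, and low counts, such as the 9 to 34 of *TNFRSF13C* after conversion, limit the precision.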

Other observations

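The genes next to the receptors gave values of their own. On chromosome 10, the nearest tested genes that do not overlap *FAS* differed in direction upon CTCF depletion, whereas the overlapping genes *STAMBPL1* and *ACTA2* both had positive log2 differences, of 1.08 (called higher) and 0.19 (not called). *ANKRD22*, 101969 bases below *FAS*, had 0 counts in both 0 h libraries, 165 and 140 in control cells and 320 and 357 in CTCF-depleted cells, and rose by 1.18 on the log2 scale upon CTCF depletion (edgeR adjusted p = 1.85e-11). *LIPA*, which encodes lysosomal acid lipase and lies 183964 bases above, rose by 2.64 during conversion (edgeR adjusted p = 2.17e-39) and fell by 1.07 upon CTCF depletion (edgeR adjusted p = 5.05e-22). *FAS* itself lay between them with a log2 difference of 0.49, which was not called.

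Next to *TNFRSF13C* on chromosome 22, the centromere protein gene *CENPM* had 406 and 608 counts at 0 h, 181 and 154 in control cells and 69 and 112 in CTCF-depleted cells. It fell during conversion by 1.54 and upon CTCF depletion by 0.86 (edgeR adjusted p = 3.91e-18 and 5.16e-06), and *TNFRSF13C* was also lower in both comparisons. *SREBF2*, a regulator of cholesterol synthesis on the other side of *TNFRSF13C* at 14726 bases, had a log2 difference of -0.55 upon CTCF depletion (edgeR adjusted p = 1.09e-14), which was not called. *NCOA5*, 28309 bases below *CD40*, had a log2 difference of 0.58 (edgeR adjusted p = 1.77e-10), and *VPS13D*, 20802 bases above *TNFRSF1B*, one of 0.35 (edgeR adjusted p = 2.25e-08), both below the fold change threshold. *SLC35C2*, 216117 bases above *CD40*, had a negative log2 difference of -0.16 (edgeR adjusted p = 0.0838), which was not called. *CD27-AS1*, which overlaps *CD27*, was called higher upon CTCF depletion, at 0.62 (edgeR adjusted p = 0.00471). On chromosome 12, *TNFRSF1A*, *LTBR* and *CD27* lie within 123.0 kb, and in control cells these neighbours were at 170 CPM, 68.4 CPM and 0 counts.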
